A study of Mus musculus with 36 samples.

Results

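Cytochrome P450 enzymes of the Cyp2 and Cyp3 families were examined in mouse liver as 37 genes, out of 17994 genes tested. They are the protein-coding genes whose symbol is Cyp2 or Cyp3 followed by a letter and a number, whose counts over the 36 libraries add up to 100 or more. Of 55 genes with such a symbol, 11 had fewer counts and 7 (Cyp2b9, Cyp2b10, Cyp2b13, Cyp2a4, Cyp2a5, Cyp2a22 and Cyp2e1) were left out by name. The pattern does not take symbols with a further letter at the end, such as Cyp3a41a. The 37 genes comprised 13 Cyp2c, 8 Cyp2d, 4 Cyp2j and 5 Cyp3a genes and 7 other Cyp2 genes (Cyp2a12, Cyp2f2, Cyp2g1, Cyp2r1, Cyp2s1, Cyp2t4 and Cyp2u1). All 37 pass the filter on low counts by this rule, and no difference between groups entered it.

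P450 enzymes are heme proteins of the endoplasmic reticulum that insert an oxygen atom into their substrates with electrons from cytochrome P450 reductase (Por). In liver the Cyp2 and Cyp3 families act on drugs, steroids, bile acids, retinoids and fatty acids such as arachidonic acid. Many of their genes answer to the nuclear receptors PXR (Nr1i2) and CAR (Nr1i3), to growth hormone, which sets their sex bias in mouse liver, and to the clock-driven factors Dbp, Tef and Hlf. Thyroid hormone receptor beta (THRB) is the main receptor for thyroid hormone in hepatocytes.

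The livers came from male mice between 2 and 3 months old, group-housed with chow under 12 h of light and 12 h of darkness. THRBKO mice were homozygous for a whole-body Thrb allele (THRB-/-) that impairs DNA binding by both THRB isoforms, and the controls, called THRBWT as in the study, were heterozygous for the same allele (THRB+/-) and not free of it. Each genotype had 3 mice at each of 6 sampling times, every 4 h from ZT2 to ZT22 (zeitgeber time, counted in hours from lights on), which gave 18 livers per genotype. Within a group the mice carry the letters a, b and c.

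The authors counted the reads of each gene, and the totals per library ranged from 29063273 to 39913574 in THRBWT and from 31008555 to 42530551 in THRBKO livers. Levels are given as CPM, counts per 1000000 counts of the library after TMM scaling, a normalization to an equal effective library size. Thrb was read at 28.9 ± 3.69 CPM (SD, n = 18) in THRBWT and 31.5 ± 2.70 CPM (SD, n = 18) in THRBKO livers, and since counts per gene do not separate altered from intact transcripts, it gave no check of the labels. Dio1, a deiodinase gene induced by thyroid hormone, had 94.4 ± 32.0 CPM (SD, n = 18) in THRBWT and 48.3 ± 12.3 CPM (SD, n = 18) in THRBKO livers (log2 fold change, log2FC, of -0.97 for THRBKO over THRBWT, with a standard error, SE, of 0.137, and adjusted p = 4.19e-05). Summed levels of 6 hepatocyte markers lay between 62778 and 89294 CPM in THRBWT and between 68773 and 93002 CPM in THRBKO livers, and none of them passed the genotype test, nor did the markers of Kupffer cells, endothelium, stellate cells, cholangiocytes, lymphocytes and red blood cells. Of the markers of pancreas, intestine, kidney and lung, 1 kidney gene, Lrp2, was called. In whole liver, fewer cells of a type and less RNA per cell cannot be told apart. A few livers stood apart in the P450 genes. The THRBKO liver ZT14c had the lowest level of its genotype for 13 of the 37 genes, and its level of the female-biased gene Cyp2a4, which is no member, was 79.7 CPM, against at most 4.11 CPM in the other 35 livers. THRBWT livers ZT10c and ZT6b held the highest or lowest level for 12 and 10 genes, THRBKO ZT10a for 10 and THRBKO ZT22b for 7. Genotype and rhythm calls that changed when 1 of these livers was left out are given beside the results.

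Start regions are shown for neighbouring genes that were higher in THRBKO livers or close to the threshold, and for a near-identical pair with a rhythm. RefSeq (GRCm38.p6) start regions, 250 bases before to 50 bases after a gene's start, were matched to 30 of the 37 genes. Cyp2c29, Cyp2c38 and Cyp2c39 follow each other on chromosome 19. Their regions at chr19:39286835-39287134 (plus strand), chr19:39463026-39463325 (minus strand) and chr19:39510572-39510871 (plus strand) are printed 5′ to 3′ with the word TATAAA in capitals. The RefSeq start of Cyp2c29 lies 17680 bases from the gene start in the count table, so this region belongs to an inner start of the counted gene.
Cyp2c29: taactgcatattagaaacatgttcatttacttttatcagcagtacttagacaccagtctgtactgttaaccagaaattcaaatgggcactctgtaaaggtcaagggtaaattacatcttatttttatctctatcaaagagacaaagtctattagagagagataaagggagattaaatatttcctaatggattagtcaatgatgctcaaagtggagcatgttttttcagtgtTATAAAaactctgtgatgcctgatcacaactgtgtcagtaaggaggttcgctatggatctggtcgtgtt
Cyp2c38: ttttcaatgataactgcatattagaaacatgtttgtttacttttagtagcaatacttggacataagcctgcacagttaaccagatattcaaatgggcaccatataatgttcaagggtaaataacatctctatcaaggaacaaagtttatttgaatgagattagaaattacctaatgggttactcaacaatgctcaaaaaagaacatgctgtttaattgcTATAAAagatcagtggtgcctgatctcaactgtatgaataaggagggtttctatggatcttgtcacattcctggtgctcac
Cyp2c39: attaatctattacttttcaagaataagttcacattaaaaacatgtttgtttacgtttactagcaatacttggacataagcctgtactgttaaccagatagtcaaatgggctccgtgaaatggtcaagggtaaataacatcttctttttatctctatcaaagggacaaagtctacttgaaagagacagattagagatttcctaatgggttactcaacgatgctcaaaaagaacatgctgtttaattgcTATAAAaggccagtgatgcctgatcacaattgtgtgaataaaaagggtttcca

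TATAAA, sought on both strands, stood in the regions of 17 of the 30 genes (56.7%) and of 13.6% of all 32851 RefSeq start regions, a word added after the other results had been seen. Its place ran from base -234 relative to the start in Cyp3a11 to base 40 in Cyp2c40. Some of the 17 regions resemble each other, such as those of Cyp2d11 and Cyp2d9 (84.5% identical), so they are not independent. The RefSeq start of Cyp2d9 lies 18940 bases from the gene start in the count table. The D-box words TTATGTAA and TTACGTAA of Dbp, Tef and Hlf, the HNF1 word GTTAATNATTAAC and the DR4 word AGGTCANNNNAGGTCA of thyroid hormone receptors were in none of the 30 regions, and in 0.938%, 0.119%, 0.00913% and 0.0152% of all regions. CACGTG, the E-box of CLOCK and BMAL1, was in 1 region, that of Cyp2j6, and in 7.15% of all regions.

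Cyp3a25 and Cyp3a59 lie next to each other on chromosome 5 in opposite directions, and their start regions at chr5:146009569-146009868 (minus strand) and chr5:146079008-146079307 (plus strand) were 95.7% identical. Capitals mark the 11 bases at which the aligned regions differ and the single base of each that falls outside the alignment.
Cyp3a25: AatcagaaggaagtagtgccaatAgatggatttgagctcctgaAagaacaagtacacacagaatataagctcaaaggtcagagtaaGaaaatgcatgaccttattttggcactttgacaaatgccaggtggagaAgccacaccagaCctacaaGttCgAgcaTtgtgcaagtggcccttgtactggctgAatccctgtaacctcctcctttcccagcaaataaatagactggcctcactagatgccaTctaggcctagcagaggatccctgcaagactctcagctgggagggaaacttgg
Cyp3a59: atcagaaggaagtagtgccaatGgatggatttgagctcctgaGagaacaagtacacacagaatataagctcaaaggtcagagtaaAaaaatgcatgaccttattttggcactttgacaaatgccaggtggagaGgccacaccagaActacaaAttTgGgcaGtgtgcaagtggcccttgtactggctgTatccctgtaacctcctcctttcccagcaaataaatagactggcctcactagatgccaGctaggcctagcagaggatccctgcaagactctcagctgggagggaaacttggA

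In levels per kb of gene length the 37 genes spanned from Cyp2d34, at 0.0483 ± 0.0671 CPM per kb (SD, n = 18) in THRBWT livers, to Cyp3a11 at 927 ± 251 CPM per kb. Cyp3a11 is the main PXR-induced Cyp3a enzyme of mouse liver. It was followed by Cyp2d9, a male-biased testosterone hydroxylase, at 655 ± 86.9 CPM per kb. Cyp2f2, a naphthalene-oxidizing enzyme of periportal hepatocytes, stood at 570 ± 58.0 CPM per kb. Next came Cyp2d10 at 533 ± 57.4, Cyp2d26 at 485 ± 44.9, Cyp2c29 at 390 ± 43.9, Cyp3a25 at 383 ± 112 and Cyp2c70 at 277 ± 77.8 CPM per kb (SD, n = 18 each). Each neighbour in this order from Cyp2d9 to Cyp3a25 differed from the next by less than the SD of the higher gene, except Cyp2d26 from Cyp2c29. The order also depends on the length used, here that of the count table. It was 3061 bases for Cyp2c29, whose longest coding transcript has 1783, and 1648 bases by both for Cyp2d10. In THRBKO livers Cyp3a11 was again at the top with 1054 ± 202 CPM per kb (SD, n = 18). The 37 genes held between 1.35% and 2.03% of the counts in THRBWT libraries and between 1.504% and 1.95% in THRBKO libraries.

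**Figure D1:**
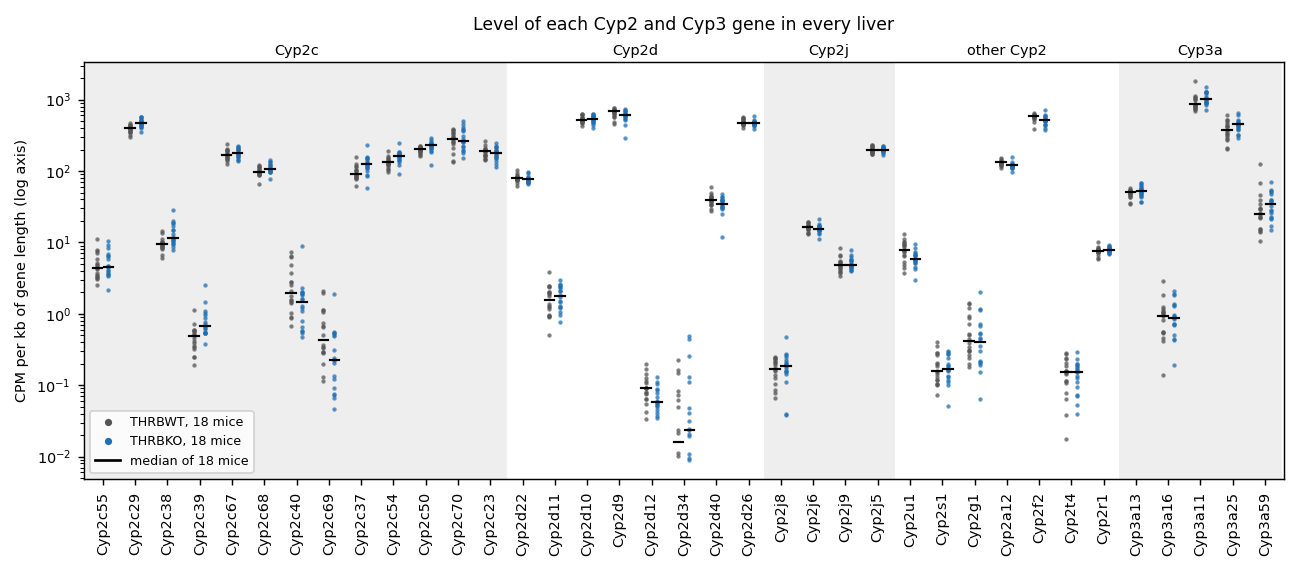
Level of each of the 37 genes in CPM per kb of gene length (log axis) in every THRBWT (grey) and THRBKO (blue) liver, with the median of 18 mice as a black bar and genes in chromosomal order within subfamilies. Livers at 0, which occur for Cyp2d34, Cyp2j8, Cyp2g1 and Cyp3a16, are not drawn. Levels span from under 0.1 to over 900 CPM per kb, and the 2 genotypes overlap for every gene.

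The genotype comparison asked which P450 genes differed between THRBKO and THRBWT livers irrespective of sampling time. The paper lists raised serum T3, the active thyroid hormone, among the known effects of the whole-body knockout, and its part was not tested. Cyp2c29, an arachidonic acid epoxygenase of pericentral hepatocytes, was the single member of 37 with an adjusted p under 0.05, and it was higher in THRBKO livers. The background was 171 of 17994 genes (0.95%), or 0.506% higher and 0.445% lower. Cyp2c29 ranged from 929 through a median of 1212 to 1429 CPM in THRBWT livers and from 1082 through 1420 to 1749 CPM in THRBKO livers. The ranges overlapped, with 8 THRBKO livers above the highest THRBWT liver, and the THRBKO mean was higher at 6 of 6 sampling times. Means were 1193 ± 134 and 1452 ± 189 CPM (SD, n = 18 each), a 1.22-fold difference (log2FC 0.28, SE 0.061, adjusted p = 0.0116 in edgeR's quasi-likelihood test with sampling time in the model, adjusted by Benjamini-Hochberg over all genes tested). When letters a, b and c were left out in turn, the log2FC lay between 0.24 and 0.32 and the adjusted p was 0.349, 0.0768 and 0.0416.

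How many members passed depended on the model and on single libraries. With a replicate block for mice of the same time and letter, 4 members passed, Cyp2c29, Cyp2c38 and Cyp2c39 higher and Cyp2a12 lower. The fits that follow had no block. The share of all genes called in each of them is not given here, so these counts of members were not compared with a background. No member passed without the mice of letter a. Without those of letter b 2 passed, Cyp2c39 higher and Cyp2u1 lower, and Cyp2c29 did not. Without letter c it was Cyp2c29 alone. Cyp2c29 passed in each of the 5 fits without a single liver named above, and alone without THRBKO ZT22b (adjusted p = 0.0205 by edgeR). Without the THRBKO liver ZT14c 4 members passed, Cyp2c29, Cyp2c37, Cyp2c50 and Cyp2c54, all higher. Without the THRBWT liver ZT6b 4 passed as well, Cyp2c29, Cyp2c38 and Cyp2c39 higher and Cyp2u1 lower. Without THRBKO ZT10a Cyp2a12 was also called, lower, and without THRBWT ZT10c Cyp2c38, higher. At an unadjusted p under 0.05, 14 members differed, 9 higher and 5 lower in THRBKO livers, against 12.1% of all genes (6.09% higher and 5.96% lower). The median log2FC was 0.07 over the 37 members and 0.00 over all genes tested, with 22 members (59.5%) and 49.5% of all genes above 0. For 18 of the 37 members another transcript was at least 90% identical over at least 80% of the member's own. Their reads could be shared, so members are not independent of each other. Cyp2c38, with a longer transcript, is not among the 18, though that of Cyp2c39 was 93.6% identical to it.

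**Figure D2:**
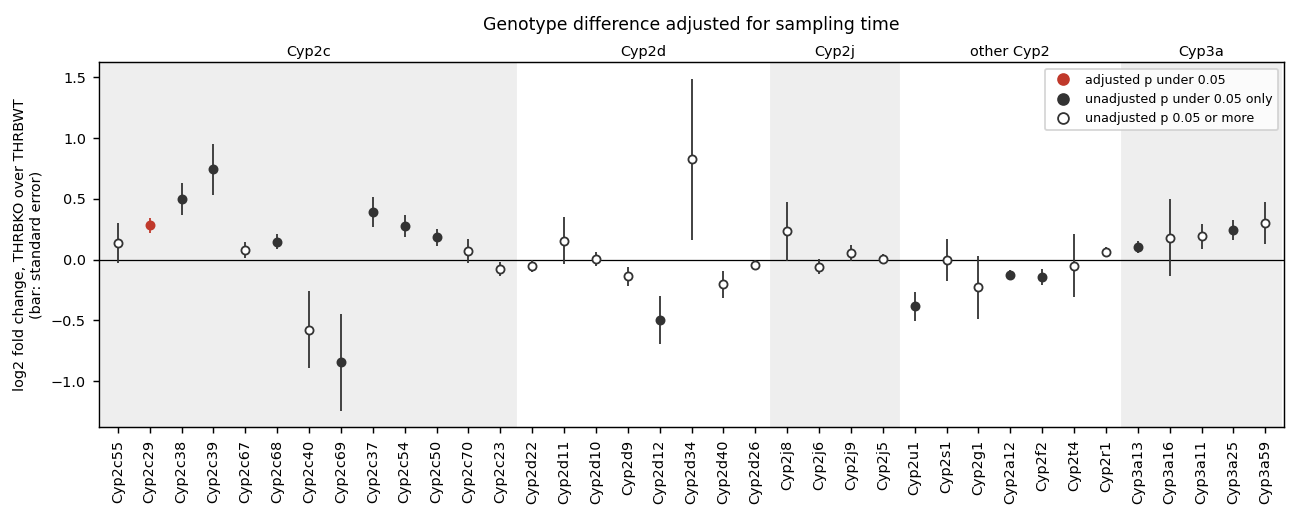
Log2FC of each of the 37 genes, THRBKO over THRBWT with sampling time in the model (bars, SE), in chromosomal order within subfamilies. The red point is Cyp2c29 at 0.28, filled black points had an unadjusted p under 0.05 only, and 10 of the 13 Cyp2c genes lie above 0.

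The 12 Cyp2c genes other than Cyp2c23 lie within 1.18 Mb of chromosome 19 (39007019 to 40187333, GRCm38), and Cyp2c23 lies 3.82 Mb beyond them. In this cluster 10 genes had a positive and 2, Cyp2c40 and Cyp2c69, a negative log2FC. Over the 13 Cyp2c genes the median was 0.15, with 7 higher and 1 lower at an unadjusted p under 0.05. The shares over all genes were 6.09% higher and 5.96% lower. Cyp2c37, Cyp2c50 and Cyp2c54 among the 7 are near copies that could share reads, so the 7 are not independent. The genes of the cluster not described next were closer to 0, with a log2FC of 0.15 (SE 0.061) in Cyp2c68, 0.14 (SE 0.161) in Cyp2c55, 0.08 (SE 0.067) in Cyp2c67 and 0.07 (SE 0.101) in Cyp2c70, and Cyp2c23 had -0.08 (SE 0.055). The summed level of all 13 was 3643 ± 235 CPM in THRBWT and 4141 ± 446 CPM in THRBKO livers (SD, n = 18 each).

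Cyp2c38, the neighbour of Cyp2c29 on the minus strand (39389556 to 39463075), had from 17.6 through a median of 26.8 to 41.2 CPM in THRBWT and from 22.8 through 32.9 to 80.3 CPM in THRBKO livers. The ranges overlapped, 7 THRBKO livers lay above every THRBWT liver, and the top value was THRBKO ZT22b. Its log2FC of 0.50 (SE 0.130) had an adjusted p of 0.0524 by edgeR's quasi-likelihood test, just above the threshold. The adjusted p passed the threshold without THRBWT ZT10c (0.0404) and without THRBWT ZT6b (0.0175). Without THRBKO ZT22b it was 0.0916, with a log2FC of 0.39, and over all alternatives it ran from 0.0103 to 0.435.

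Cyp2c39, a retinoic acid hydroxylase, was low, at 0.881 ± 0.396 CPM in THRBWT and 1.52 ± 0.906 CPM in THRBKO livers (SD, n = 18 each). Its log2FC was 0.74 (SE 0.208, adjusted p = 0.0772 by the same test). The highest THRBKO value, 4.62 CPM, was again in ZT22b, without which the log2FC was 0.59 (adjusted p = 0.133). The adjusted p was 0.0314 without letter b and 0.00998 without THRBWT ZT6b. Its transcript was 93.6% identical to that of Cyp2c38, and that of Cyp2c29 was 88.2% identical to that of Cyp2c39, over at least 80% of the length. How the counting treated reads that match several genes is not given in the sources used here, so reads could have moved between them.

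Cyp2c37, Cyp2c50 and Cyp2c54, pericentral genes whose transcripts were 95.3% to 95.9% identical to the nearest copy, leaned the same way. Cyp2c37 had from 111 through a median of 167 to 290 CPM in THRBWT and from 107 through 225 to 422 CPM in THRBKO livers. Its lowest THRBKO value was in ZT14c and its highest in ZT22b. The log2FC was 0.39 (SE 0.122, adjusted p = 0.132), with a higher THRBKO mean at 6 of 6 sampling times, and the adjusted p was 0.0332 without THRBKO ZT14c and 0.195 without THRBKO ZT22b. Cyp2c54 had a log2FC of 0.28 (SE 0.089, adjusted p = 0.143, and 0.0334 without THRBKO ZT14c). Cyp2c50 had 0.18 (SE 0.068, adjusted p = 0.238, and 0.0193 without THRBKO ZT14c), with 11 THRBKO livers above the highest THRBWT liver and ZT14c, at 353 CPM, below the lowest. Counted as a single gene, the 3 copies gave 0.24 (SE 0.078, adjusted p = 0.142).

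Cyp2c40 and Cyp2c69 went the other way, and their values turned on the mice of ZT2. Cyp2c40, a female-biased arachidonic acid hydroxylase, had 15.01, 12.8 and 13.0 CPM in the 3 THRBWT mice at ZT2 and 2.64, 3.98 and 1.15 CPM in the 3 THRBKO mice. At the other times THRBWT livers had from 1.37 to 9.72 CPM, and 1 THRBKO liver, ZT14a, reached 18.2 CPM. All 3 THRBWT livers at ZT2 were above every other THRBWT liver. At ZT2 the log2FC was -2.38 (SE 0.633, unadjusted p = 7.66e-04, adjusted p = 0.749 by edgeR's quasi-likelihood test), and over all times it was -0.58 (SE 0.314, adjusted p = 0.476).

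Cyp2c69 followed it in the same mice. It had 3.74, 2.02 and 3.46 CPM in THRBWT and 0.356, 0.544 and 0.115 CPM in THRBKO livers at ZT2, and 3.38 CPM in THRBKO ZT14a. Its log2FC was -3.15 at ZT2 (SE 0.821, adjusted p = 0.749) and -0.84 over all times (SE 0.398, adjusted p = 0.386). The transcripts of Cyp2c40, Cyp2c67, Cyp2c68 and Cyp2c69 were 97.6% to 98.0% identical to the nearest copy. Cyp2c67 at 297 ± 47.4 and Cyp2c68 at 171 ± 23.2 CPM in THRBWT livers (SD, n = 18 each) were far more counted, and summed as a single gene the 4 had a log2FC of 0.10 (SE 0.059, adjusted p = 0.544). Cyp2d34, a low gene of the Cyp2d cluster, also had its highest THRBWT group mean at ZT2, 0.412 ± 0.206 CPM (SD, n = 3), against 0.0371 ± 0.0446 CPM in THRBKO livers. Its THRBKO mean was the higher at 4 of 6 times, such as 0.662 ± 0.576 against 0.0671 ± 0.0678 CPM at ZT18 (SD, n = 3 each). Over all times its log2FC was positive, at 0.83 (SE 0.661).

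**Figure D3:**
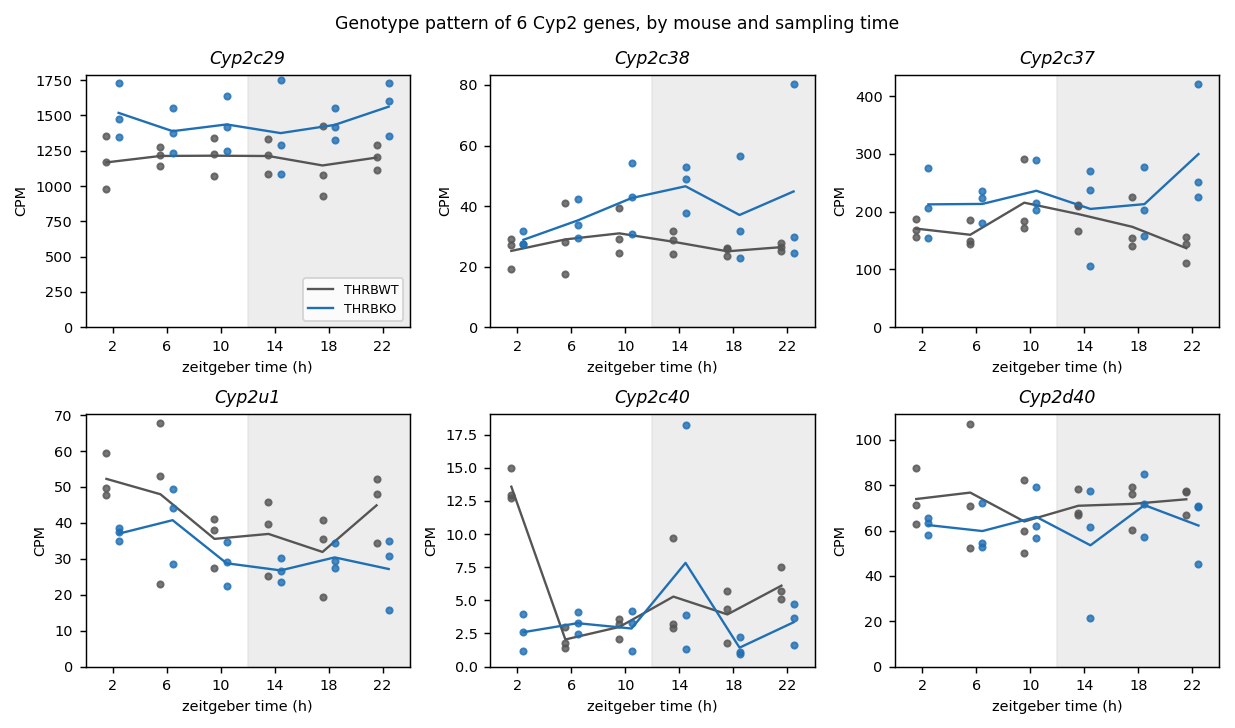
CPM of Cyp2c29, Cyp2c38, Cyp2c37, Cyp2u1, Cyp2c40 and Cyp2d40 in every liver by zeitgeber time, THRBWT in grey and THRBKO in blue, with lines through the group means of 3 mice, the dark phase shaded and points offset sideways by genotype. Cyp2c40 stands at 12.8 to 15.01 CPM in the THRBWT livers at ZT2, and THRBKO ZT14c is the lowest Cyp2d40 point at 21.6 CPM.

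The 8 Cyp2d genes lie within a cluster of chromosome 15, and their median log2FC was -0.05, with 3 above and 5 below 0 and none called. Cyp2d9 had from 1203 through a median of 1828 to 2030 CPM in THRBWT livers and from 778 through 1628 to 1947 CPM in THRBKO livers. The value of 778 CPM was in ZT14c, and the log2FC was -0.14 (SE 0.079, adjusted p = 0.503). Cyp2d40 had 71.9 ± 13.4 CPM in THRBWT and 62.5 ± 14.4 CPM in THRBKO livers (SD, n = 18 each), with ZT14c lowest at 21.6 CPM. Its log2FC was -0.20 (SE 0.111, adjusted p = 0.473).

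Cyp2d10 and Cyp2d26 were nearly level between genotypes. Cyp2d10 had 879 ± 94.7 and 882 ± 108 CPM, and Cyp2d26 869 ± 80.5 and 843 ± 75.1 CPM (SD, n = 18 each, THRBWT first). Their log2FC values of 0.00 (SE 0.054) and -0.04 (SE 0.039) changed sign when letter a and letter c, respectively, were left out. Cyp2d22 had -0.05 (SE 0.048). Cyp2d11, Cyp2d12 and Cyp2d34 had under 3 CPM in THRBWT livers on average, with a log2FC of 0.16 (SE 0.193) in Cyp2d11 and 0.83 (SE 0.661) in Cyp2d34, which had no count in 7 THRBWT and 3 THRBKO livers. Without letter a the log2FC of Cyp2d34 was -0.41. Cyp2d12, at 0.368 ± 0.163 and 0.260 ± 0.104 CPM (SD, n = 18 each), had a lower THRBKO mean at 6 of 6 times and a log2FC of -0.50 (SE 0.198, adjusted p = 0.279).

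The 5 Cyp3a genes all had a positive log2FC, with a median of 0.19 and none called. Cyp3a11 had from 3512 through a median of 4384 to 9183 CPM in THRBWT livers and from 3603 through 5116 to 7649 CPM in THRBKO livers. The top THRBWT value was in ZT6b, and the log2FC was 0.19 (SE 0.102, adjusted p = 0.459). Cyp3a25 had 797 ± 234 and 925 ± 193 CPM (SD, n = 18 each), with a log2FC of 0.24 (SE 0.082, adjusted p = 0.183). Cyp3a13, which lies apart from the other Cyp3a genes on chromosome 5 (137892932 to 137921619), had 0.10 (SE 0.049, adjusted p = 0.393). Cyp3a59 at 0.30 (SE 0.173, adjusted p = 0.505) and the female-biased Cyp3a16 at 0.18 (SE 0.318, adjusted p = 0.880) did not pass either. The nearest transcript to that of Cyp3a11, Cyp3a41a, was 94.7% identical.

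Among the 7 other Cyp2 genes, 6 had a negative log2FC, 3 of them at an unadjusted p under 0.05. Of all genes, 5.96% were lower at that threshold. Cyp2u1, a fatty acid hydroxylase, had from 19.5 through a median of 40.9 to 67.8 CPM in THRBWT livers and from 15.8 through 30.5 to 49.5 CPM in THRBKO livers. The THRBKO mean was lower at 6 of 6 sampling times. The log2FC was -0.38 (SE 0.121, adjusted p = 0.136), which passed with letter b left out (adjusted p = 0.0435) and with THRBWT ZT6b left out (adjusted p = 0.0310).

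Cyp2a12, which hydroxylates bile acids, had 451 ± 35.0 CPM in THRBWT and 414 ± 42.0 CPM in THRBKO livers (SD, n = 18 each), with a log2FC of -0.13 (SE 0.040, adjusted p = 0.127, and 0.0411 without THRBKO ZT10a). Its transcript was 96.3% identical to that of Cyp2a22. Cyp2f2 had 1154 ± 117 and 1047 ± 165 CPM (SD, n = 18 each), with -0.14 (SE 0.066, adjusted p = 0.371). Cyp2r1, the vitamin D hydroxylase of liver, was the exception with a positive value of 0.07 (SE 0.038, adjusted p = 0.503). The lowly expressed Cyp2g1, Cyp2s1 and Cyp2t4 had -0.23 (SE 0.256), 0.00 (SE 0.175) and -0.05 (SE 0.260).

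The 4 Cyp2j genes, fatty acid epoxygenases on chromosome 4, showed the smallest differences between genotypes in median, 0.03. Cyp2j5 had 468 ± 44.4 CPM in THRBWT and 471 ± 34.5 CPM in THRBKO livers (SD, n = 18 each), a log2FC of 0.01 (SE 0.035, adjusted p = 0.957). Cyp2j6 and Cyp2j9 had -0.06 (SE 0.060) and 0.05 (SE 0.068), and Cyp2j8 was near its limit of detection at 0.242 ± 0.108 CPM (SD, n = 18) in THRBWT livers.

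Grouped by place in the lobule, the pericentral members Cyp2c29, Cyp2c37, Cyp2c50, Cyp2c54 and Cyp3a11 had a median log2FC of 0.28, against 0.00 over all genes, and periportal Cyp2f2 had -0.14. The single call among the 5 was that of Cyp2c29 given above (0.95% of all genes were called), and Cyp2c37, Cyp2c50 and Cyp2c54 are near copies. Grouped by sex bias, 4 female-biased members with enough counts (Cyp3a16, Cyp2c40, Cyp2c69 and Cyp2g1) had a median of -0.40 with none called. Their values ran from -0.84 in Cyp2c69 to 0.18 in Cyp3a16, which went the other way. Cyp2c40 and Cyp2c69 are near copies whose values turned on the mice of ZT2. The male-biased Cyp2d9 had -0.14 and was not called either. Genes left out by name, such as Cyp2e1, Cyp2b9 and Cyp2a4, are not in these lists, so the medians hold for the listed members only. These lists were set with earlier results of the same livers known.

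Per sampling time the genotype comparison rested on 3 mice against 3 in a fit over all 36 libraries, and edgeR's quasi-likelihood test called no member at any of the 6 times, against 0.0278%, 0.0111%, 0.0167%, 0.0167%, 0.0222% and 0.0222% of all genes from ZT2 to ZT22. Below an unadjusted p of 0.05 lay 6 members at ZT2, 5 at ZT6, 2 at ZT10, 5 at ZT14, 3 at ZT18 and 7 at ZT22, with backgrounds of 5.43%, 4.37%, 4.12%, 5.34%, 5.36% and 4.73% of all genes. The ZT2 members were mostly lower in THRBKO livers (5 of 6) and the ZT22 members mostly higher (6 of 7).

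Cyp2c37 had the smallest unadjusted p of the members at ZT22. Its 3 THRBWT mice had 144, 156 and 111 CPM and its 3 THRBKO mice 251, 422 and 226 CPM, without overlap. The log2FC was 1.13 (SE 0.282, unadjusted p = 3.85e-04, adjusted p = 0.320), and without THRBKO ZT22b it was 0.80 (SE 0.290, unadjusted p = 0.00987, adjusted p = 1 by edgeR). Without that liver Cyp2c37 was the single member under an unadjusted p of 0.05 at ZT22. Cyp3a25 showed a gap of the same kind at ZT18, with 631, 431 and 583 CPM in THRBWT and 772, 836 and 1092 CPM in THRBKO livers, a log2FC of 0.72 (SE 0.165, unadjusted p = 1.56e-04, adjusted p = 0.311).

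Whether the genotype effect varied with sampling time was tested with 5 interaction coefficients. No gene of the 17994 passed (0%), by edgeR, and no member passed a likelihood ratio test in DESeq2. Before adjustment, 5 members lay under 0.05, against 2.69% of all genes. Unadjusted values from edgeR were 0.00436 for Cyp3a25, 0.0115 for Cyp2c40, 0.0191 for Cyp2c69, 0.0196 for Cyp3a59 and 0.0280 for Cyp2d34. They are 2 sets of near-identical genes and a gene at the limit of detection.

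Daily rhythms were sought as a 24-h cosine curve in each genotype. Of the 37 members, 11 were rhythmic in THRBWT livers (background 35.1% of all genes) and 8 in THRBKO livers (31.5%), and 7 in both (24.5%), in edgeR's quasi-likelihood test after adjustment over all genes. The 7 genes were Cyp3a25, Cyp3a59, Cyp3a13, Cyp2c23, Cyp2c70, Cyp2g1 and Cyp2j9. Cyp2c55, Cyp2d26, Cyp2r1 and Cyp2s1 passed in THRBWT livers and not in THRBKO livers, and Cyp2a12 the reverse, and none of these differences between genotypes passed its own test. The counts moved with the mice left out, to 8, 8 and 6 in THRBWT and 5, 7 and 2 in THRBKO livers without letters a, b and c. Those fits had fewer livers, and their shares of all genes called are not given here, so the lower counts are not a result about the members. Some calls were gained in these fits, those of Cyp2c40 and Cyp2c69 in THRBWT and of Cyp2c29 in THRBKO livers without letter a, and those of Cyp2u1 in THRBWT and of Cyp2c38 in THRBKO livers without letter b. Without THRBKO ZT22b the rhythm of Cyp2c38 in THRBKO livers passed as well (adjusted p = 0.0157 by edgeR). The THRBKO call of Cyp2a12 held without THRBWT ZT10c and in none of the other 7 fits with a letter or a single liver left out. In THRBWT livers Cyp2d22 also passed without THRBKO ZT14c, THRBKO ZT10a or THRBWT ZT6b, Cyp2u1 passed without THRBWT ZT6b, and Cyp2d26 did not pass without THRBWT ZT10c. With each sampling time as its own level in place of a cosine, 5 members were called in THRBKO livers, again without the share of all genes beside it.

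The strongly expressed Cyp3a11, Cyp2d9, Cyp2f2, Cyp2d10 and Cyp2c29 passed in neither genotype. Cyp2c29, for example, had a fitted amplitude (the log2 distance from the mean of the curve to its peak) of 0.03 in THRBWT and 0.08 in THRBKO livers. Without the mice of letter a its THRBKO amplitude was 0.22, with an adjusted p of 0.0465 by edgeR, and none of the other 4 genes passed in either genotype with a letter left out.

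Cyp3a25 had the strongest test of rhythm in THRBWT livers. Its THRBWT levels were 672, 1024 and 903 CPM at ZT2, 1073, 1284 and 1084 at ZT6, 869, 900 and 949 at ZT10, 761, 790 and 678 at ZT14, 631, 431 and 583 at ZT18, and 712, 428 and 574 CPM at ZT22. The 3 ZT6 livers were above all others. In THRBKO livers the levels were 798, 954 and 900 CPM at ZT2, 988, 898 and 956 at ZT6, 1282, 930 and 1348 at ZT10, 1032, 966 and 954 at ZT14, 772, 836 and 1092 at ZT18, and 609, 670 and 666 CPM at ZT22. Here the highest group was ZT10 and the lowest was ZT22, whose 3 livers were below all others.

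The curve of Cyp3a25 peaked at ZT6.96 ± 0.508 h (SE) in THRBWT livers with an amplitude of 0.52 (SE 0.069, adjusted p = 2.13e-06), a 2.06-fold change from trough to peak. In THRBKO livers it peaked at ZT10.3 ± 0.812 h (SE) with an amplitude of 0.33 (SE 0.069, adjusted p = 0.00170), a 1.57-fold change. The peak was 3.30 h later in THRBKO livers, and the difference of the curves had an unadjusted p of 0.00107 and an adjusted p of 1 over all genes.

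Cyp3a59, the near copy shown above, had the same order of peaks at a lower level. THRBWT livers had 134, 254 and 92.5 CPM at ZT6 and 43.8, 28.3 and 21.2 CPM at ZT22, and THRBKO livers had 139, 43.2 and 104 CPM at ZT10 and 34.0, 52.2 and 29.6 CPM at ZT22. All 3 ZT6 values of THRBWT livers were above those of the other times. The peak was at ZT6.34 in THRBWT livers (amplitude 0.99, SE 0.168) and at ZT9.25 in THRBKO livers (0.58, SE 0.168), a difference of 2.91 h (unadjusted p = 0.0153, adjusted p = 1).

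The transcripts of Cyp3a25 and Cyp3a59 were 97.0% identical, so the pair is not a repeat of the same observation in independent genes. Summed as a single gene, they peaked at ZT6.87 in THRBWT and ZT10.1 in THRBKO livers (unadjusted p of the difference 9.45e-04, adjusted p = 1). Without THRBKO ZT10a the rhythm of Cyp3a59 in THRBKO livers no longer passed (adjusted p = 0.0934), nor did it without letter a (0.435) or letter c (0.172), and that of Cyp3a25 in THRBKO livers did not pass without letter a (0.106).

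**Figure D4:**
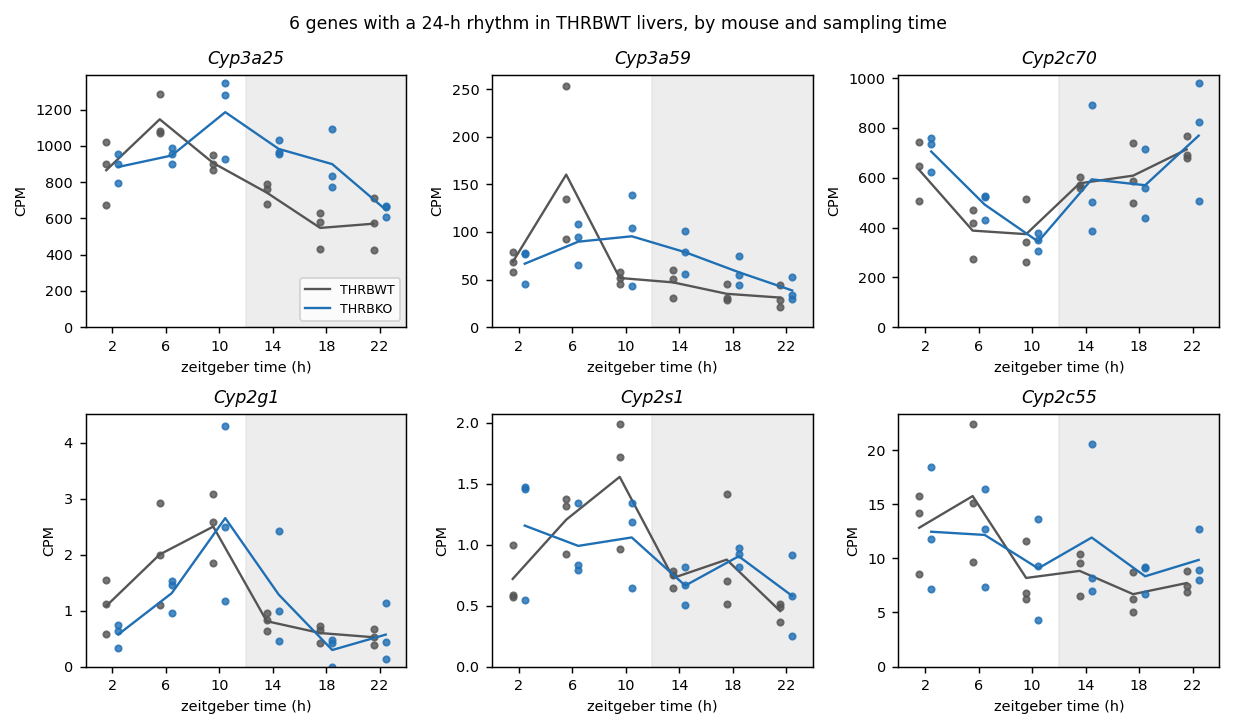
CPM of Cyp3a25, Cyp3a59, Cyp2c70, Cyp2g1, Cyp2s1 and Cyp2c55 in every liver by zeitgeber time, THRBWT in grey and THRBKO in blue, with lines through the group means of 3 mice, the dark phase shaded and points offset sideways by genotype. Group means of Cyp3a25 are highest at ZT6 (1147 CPM) in THRBWT and at ZT10 (1187 CPM) in THRBKO livers, and Cyp2c70 is lowest at ZT10 in both.

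Cyp2c70, which makes the muricholic acids of mouse bile, ran nearly opposite. Its group means fell from 632 CPM at ZT2 to 374 CPM at ZT10 and stood at 714 CPM at ZT22 in THRBWT livers, and ran from 706 through 344 to 769 CPM at the same times in THRBKO livers. The fitted peaks were at ZT20.7 ± 0.911 h and ZT22.0 ± 0.935 h (SE), with amplitudes of 0.47 (SE 0.111, adjusted p = 0.00562) and 0.45 (SE 0.111, adjusted p = 0.00754). Without the mice of letter c neither passed, with adjusted p of 0.122 and 0.133.

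Cyp2g1, an enzyme best known from olfactory mucosa, was near 1 CPM but had the largest amplitude of the rhythmic members. THRBWT livers had 1.85, 2.58 and 3.07 CPM at ZT10 and 0.664, 0.383 and 0.524 CPM at ZT22. THRBKO livers had 1.16, 2.49 and 4.30 CPM at ZT10 and 0.416, 0 and 0.471 CPM at ZT18. Its amplitude was 1.17 (SE 0.258, adjusted p = 0.00131) in THRBWT and 1.29 (SE 0.261, adjusted p = 4.79e-04) in THRBKO livers, a 5.08-fold and a 5.96-fold change, with peaks at ZT7.88 and ZT9.45. With letter c left out, the rhythm in THRBKO livers had an adjusted p of 0.0512.

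The other rhythmic members had smaller amplitudes or weaker tests. Cyp2c23 peaked at ZT10.5 in THRBWT and ZT10.3 in THRBKO livers with amplitudes of 0.27 and 0.29 (SE 0.057 each). Its THRBKO call was lost without letter c (adjusted p = 0.0992 by edgeR). Cyp2j9 peaked at ZT7.79 and ZT9.47, with 0.34 and 0.24. Its THRBKO call was lost without letter a or b (adjusted p of 0.0577 and 0.172 by edgeR). Its THRBWT call was lost without letter c (0.0663). Cyp3a13 peaked in the dark, at ZT14.8 and ZT16.8, with 0.20 and 0.28. Its THRBWT call was lost without letter a or c (adjusted p of 0.220 and 0.0510 by edgeR). Its THRBKO call was lost without letter c (0.0625). Cyp2s1 and Cyp2c55 had THRBWT amplitudes of 0.67 (SE 0.183) and 0.54 (SE 0.167), and each lost its call with letter b left out, with adjusted p of 0.0506 and 0.372, and with letter a left out, with 0.114 and 0.0618. Cyp2c55 lost it also without THRBWT ZT6b (adjusted p = 0.132). Cyp2d26 had 0.14 (SE 0.040), a call that was lost without the mice of any letter. Its amplitude ran from 0.130 to 0.142 in those fits, which had fewer livers. The THRBWT call of Cyp2r1 (amplitude 0.14, SE 0.042) was likewise lost without letter a, b or c. Its adjusted p values were 0.156, 0.0728 and 0.208 by edgeR.

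The test that the 24-h curves are equal between genotypes called no gene of 17994 (0%). Before adjustment, 4 members lay under 0.05, Cyp3a25, Cyp3a59, Cyp2c69 and Cyp2c40, against 3.07% of all genes. Unadjusted values from edgeR were 0.00950 for Cyp2c69 and 0.0225 for Cyp2c40. In 6 of the 7 members rhythmic in both genotypes the fitted peak was later in THRBKO livers, by 1.27 to 3.30 h, and in Cyp2c23 it was 0.174 h earlier. Later peaks were also the more frequent kind among all 4411 genes rhythmic in both genotypes (65.6%, with a median shift of 0.390 h), and Cyp3a25 and Cyp3a59 among the 6 are near copies.

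**Figure D5:**
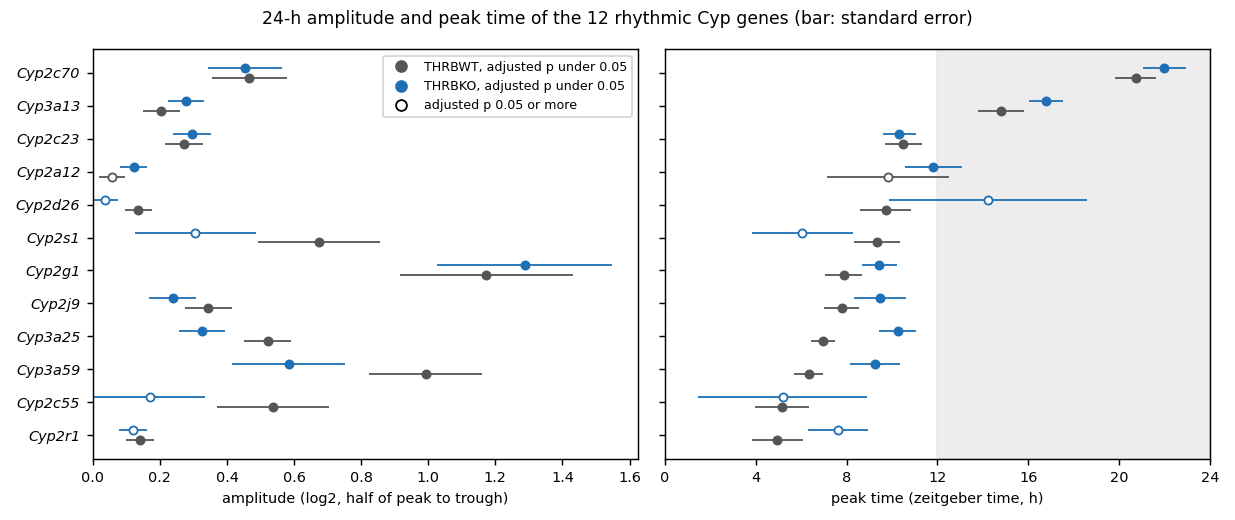
Fitted 24-h amplitude (log2) and peak time (zeitgeber time, h) of the 12 genes with a rhythm in either genotype, THRBWT in grey and THRBKO in blue, bars the SE, filled points an adjusted p under 0.05. The peaks of Cyp3a25 lie at ZT6.96 and ZT10.3, and most filled points fall in the light phase while Cyp2c70 and Cyp3a13 peak in the dark.

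Among genes outside the family, those most like Cyp3a25 over the 12 group means of log2 CPM, out of 11889 with a mean of at least 50 counts, were Sec61a2 (Pearson r 0.955), E130102H24Rik (0.914), Sesn2 (0.912), Slc25a26 (0.909) and Jmy (0.907). The 12 points share their livers between all genes, and the values are a description.

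Beside the P450 genes, 8 genes of electron supply or heme handling were measured, and none passed the genotype test. They were Por, Cyb5a, Cyb5b, Cyb5r3, Pgrmc1, Alas1, Fech and Hmox1. In both genotypes 5 of the 8 were rhythmic, against 24.5% of all genes. Por, the reductase on which these enzymes depend, had 381 ± 246 CPM in THRBWT and 424 ± 251 CPM in THRBKO livers (SD, n = 18 each), with a log2FC of 0.21 (SE 0.080, adjusted p = 0.252). Its level changed 6.02-fold over the day in THRBWT livers, with peaks at ZT12.3 and, in THRBKO livers, ZT12.8. Alas1, which starts heme synthesis, changed 9.17-fold, with peaks at ZT13.3 and ZT12.1.

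Of 17 transcription factors known to act on liver P450 genes, none passed the genotype test (0.95% of all genes did), 14 were rhythmic in THRBWT (35.1% of all genes) and 11 in THRBKO livers (31.5%). Nr1i3 (CAR) changed 2.03-fold over the day in THRBWT livers with a peak at ZT11.3, and Nr1i2 (PXR) 1.51-fold with a peak at ZT11.6. Dbp changed 104-fold, with peaks at ZT9.41 and ZT9.81. Of 9 genes on the growth hormone route, 1 was called, Trim24, a transcriptional corepressor, at 15.4 ± 5.97 CPM in THRBWT and 18.9 ± 7.30 CPM in THRBKO livers (SD, n = 18 each), with a log2FC of 0.30 (SE 0.076, adjusted p = 0.0498). Stat5b, a transducer of the growth hormone pulse, had 0.16 (SE 0.059, adjusted p = 0.230).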

How the data were processed

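Livers of 36 male mice were analysed, 18 THRBWT and 18 THRBKO, grouped by genotype, sampling time and letter from the sample labels. The libraries were poly-A selected, paired-end and not strand-specific. HISAT2 (mapping to GRCm38) and FeatureCounts were used by the authors, who deposited whole-number counts per gene without normalization. Versions, annotation release and the handling of reads with several matches are not given in the sources used here, so counts can move between near-identical genes, and genes overlapping on opposite strands share reads. Depth limits genes of few counts.

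Genes reaching 100 counts in sum were tested with edgeR 4.0.16 (limma 3.58.1, R 4.3.3; TMM, glmQLFit and glmQLFTest), with sampling time as a factor plus genotype, with genotype by time terms, with 1 mean per group, or with a 24-h cosine and sine per genotype. P-values were adjusted by Benjamini-Hochberg over all 17994 genes (threshold 0.05). DESeq2 1.42.0 was an alternative. The edgeR fits were tested on simulated counts. Transcripts (GENCODE vM21) were aligned with BLAST 2.17.0. Libraries of the same group differed by more than sampling noise (chi-square per gene from 27.8 to 115).

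Genes with values per liver were those called between genotypes, the 8 highest per kb, the 6 with the largest THRBWT amplitude among rhythmic members, the 3 largest positive and 3 largest negative log2 fold changes (mean of at least 50 counts) and the most abundant gene of each subfamily. Members outside this rule, such as Cyp2c39 and Cyp2c69, were named after their values were seen. Members and lists were chosen with earlier results of these data known.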

Additional observations from a re-analysis of the deposited data

How the results depend on the processing

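The number of members called between genotypes, 1 as reported, was 2 without a filter on low counts, 2 with edgeR's filterByExpr, 3 with a Wald test in DESeq2 (where 1 member had no adjusted p), and from 0 to 4 when the mice of a letter or a single liver were left out, the single livers chosen after seeing the data. DESeq2 size factors, robust estimation, genotype alone and near-identical copies summed gave 1. The count per sampling time, 0 as reported, was 1 without a filter. Rhythmic members, 11 in THRBWT livers, were 6 to 12 with mice left out, and those in THRBKO livers, 8 as reported, were 2 to 8 with mice left out and 5 with sampling time as a factor. For these alternatives the share of all genes called is not given here, so the counts of members have no background beside them. At an unadjusted p under 0.05, 4 members differed in rhythm. No label states that mice of the same time and letter are pairs. Their deviations correlated between -0.04 and 0.22 over 18 pairs, with a median of 0.10 and 9 pairs over 0.1. Of 18 THRBWT mice, 15 correlated best with their own letter among the 3 THRBKO mice of their time. Livers of a letter thus shared some variation, whose source was not tested. With a replicate block for these pairs, 4 members passed, Cyp2c29, Cyp2c38 and Cyp2c39 higher and Cyp2a12 lower (adjusted p of 0.00487, 0.0111, 0.0237 and 0.0280 by edgeR), of 387 genes. The block changed no call of the interaction, of single sampling times or of the difference of rhythm among members, and no paired analysis was possible for rhythm within a genotype because the pairs join genotypes.

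Signs changed with mice left out in several genes. Among named genes, log2 fold changes ran from -0.073 to 0.050 in Cyp2d10 and from -0.0085 to 0.020 in Cyp2j5. They ran from -0.078 to 0.054 in Cyp2s1, from -0.085 to 0.0057 in Cyp2d26 and from -0.20 to 0.33 in Cyp2c55. Members of few counts changed sign as well. Without letter a, Cyp2d34 turned from 0.83 to -0.41, Cyp2d11 from 0.16 to -0.02 and Cyp2t4 from -0.05 to 0.26. Cyp2j8 turned from 0.23 to -0.05 without letter c. Of the log2 fold changes of named genes under the alternatives, 247 kept direction and call, 9 passed the threshold in addition, 2 lost it and 12 changed sign. The causes were not tested.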
